A study of Mus musculus with 12 samples.

Results

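The genes described here encode enzymes and receptors that handle purines and NAD, most of them at the T cell surface: Entpd1, Nt5e, Cd38, Art2b, P2rx7, Adora2a, Ada and Adk. They were chosen as a functional group, with earlier results of these data known, and all 8 are listed in both deposited tables, out of 10405 genes for regulatory T cells (Treg) and 9886 for conventional T cells (Tcon). RNA was sequenced in 12 libraries from mice of the reporter strain B6.Cg-Foxp3tm2Tch/J (FOXP3-IRES-GFP), in which the Foxp3 locus also drives GFP, and every group carries this allele. Of these, 6 libraries came from CD4+CD25+FOXP3+ Treg and 6 from naive CD4+ Tcon. For each cell type there were 2 SAH libraries and 1 vehicle library from spleen, and 2 SAH libraries and 1 vehicle library from lymph node. SAH stands for the peptide SAH-FOXP3(229-259)C, an alpha helix held in shape by a staple, injected into the peritoneum at 25 mg/kg on each of 2 days, and the vehicle libraries carry DMSO in their titles. The titles give each library a number, which 1 Treg and 1 Tcon library share. Spleen SAH libraries are 5 and 6 and the spleen vehicle library is 4, while lymph node SAH libraries are 2 and 3 and their vehicle is 1. The labels do not give the age of the mice or whether libraries came from separate mice, so p-values here reflect sample-to-sample spread alone, and that spread may be technical. In such bulk samples, fewer cells that express a gene and less of its RNA per cell cannot be told apart.

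ATP and NAD released from stressed or dying cells act on T cells from outside. Entpd1 (CD39) and Nt5e (CD73) turn extracellular ATP stepwise into adenosine, which signals through the receptor Adora2a and is known to dampen T cell responses, and Treg are known for carrying both enzymes in mice. NAD feeds a second branch: Art2b, a mouse ADP-ribosyltransferase anchored in the membrane, uses it to modify the ATP-gated channel P2rx7, while Cd38 consumes it. Adenosine is removed by Ada, which deaminates it to inosine, and by Adk, the kinase that turns it back into AMP inside the cell.

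The libraries carried the markers of their labels. Foxp3 lay between 655 and 726 CPM in Treg libraries and between 19.6 and 24.9 CPM in Tcon libraries. Il2ra, which encodes CD25, lay between 520 and 788 CPM in Treg libraries and between 3.85 and 6.94 CPM in Tcon libraries. CPM is the unit the authors give, a read count divided by the library's depth and scaled. Some genes of other cell types stood apart by organ. Jchain, a plasma cell gene, was between 72.1 and 120 CPM in spleen Treg against 0.147 to 0.849 CPM in lymph node Treg, and between 36.7 and 102 CPM in spleen Tcon against 0.281 to 0.373 CPM in lymph node Tcon. The red cell gene Slc4a1 stood at 110 CPM in Treg of library 6, above every other library of either cell type. The CD8 gene Cd8a is not among the genes analysed here. Each library held between 36442420 and 48888678 rebuilt reads, and a single read counted for at most 0.0267 CPM.

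Art2b was lower with SAH in both cell types and Adk was lower with SAH in Tcon. Art2b fell by 0.41 on the log2 scale in Treg and by 0.68 in Tcon, and Adk fell by 0.43 in Tcon. In Treg, 1 of 8 genes passed the test and it was lower, where 0.202% of all genes were called and 0.0673% were called lower. In Tcon, 2 of 8 passed, both lower, where 1.04% of all genes were called, 0.162% lower and 0.88% higher (16 and 87 genes, or 28 and 48 once the columns were rescaled to equal totals). The ectonucleotidases Entpd1 and Nt5e, the receptor Adora2a, Cd38 and Ada were not called in either cell type. Calls are from limma on log2(CPM + 1), with organ and treatment as terms, at a Benjamini-Hochberg adjusted p below 0.05 across the whole table. The median log2 change over the 8 genes was 0.0046 in Treg and -0.037 in Tcon, against 0.0035 in Treg and -0.0028 in Tcon over all genes tested.

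**Figure D1:**
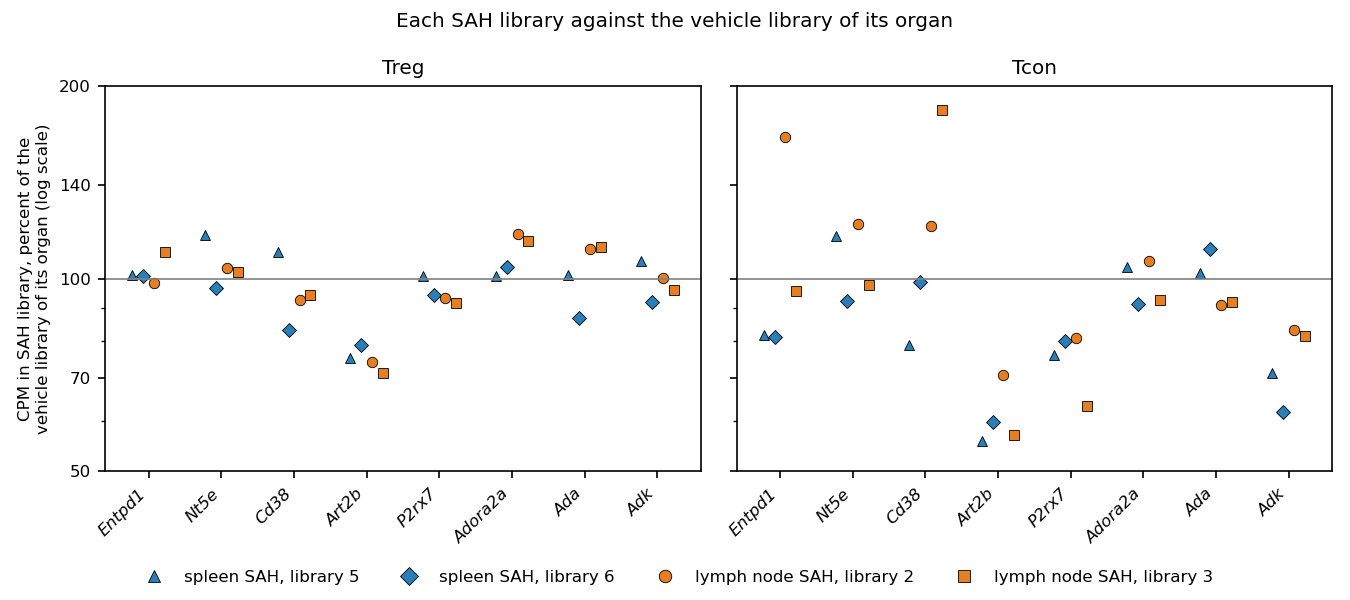
Level of each gene in each SAH library as a percent of the single vehicle library of the same organ and cell type (log axis, the line marks 100%). All 8 Art2b points lie below the line, between 55.8% and 78.7%, and Adk and P2rx7 lie below it in all 4 Tcon libraries but on both sides of it in Treg.

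**Figure D2:**
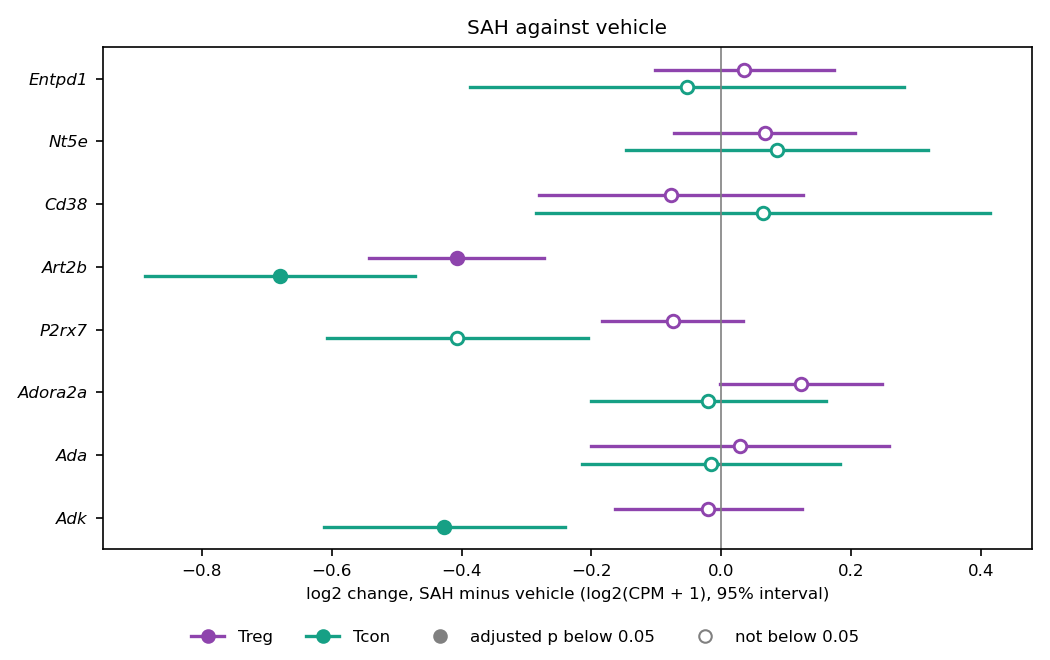
Change with SAH for each gene in Treg and Tcon, as log2(CPM + 1) of SAH minus vehicle with its 95% interval from limma (filled points, adjusted p below 0.05). The filled points are Art2b in both cell types and Adk in Tcon.

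Art2b (chromosome 7, 101576970 to 101585600, minus strand, mm10) adds ADP-ribose to surface proteins. In spleen Treg it was at 42.6 and 44.6 CPM with SAH, against 56.7 CPM with vehicle. In lymph node Treg it was at 23.1 and 22.3 CPM with SAH, against 31.2 CPM with vehicle. In spleen Tcon it was at 15.1 and 16.2 CPM with SAH, against 27.1 CPM with vehicle, and in lymph node Tcon at 10.7 and 8.58 CPM with SAH, against 15.1 CPM with vehicle. In every organ and cell type both SAH libraries were below the vehicle library. The SAH libraries held 71.3% to 78.7% of the vehicle level of their organ in Treg and 55.8% to 70.8% in Tcon. The log2 change was -0.41 in Treg (95% interval -0.54 to -0.27, limma adjusted p = 0.015) and -0.68 in Tcon (-0.89 to -0.47, adjusted p = 0.0125). In the authors' deposited table, Art2b was called lower in Treg (log2 fold change -0.42, false discovery rate 2.02e-05) and in Tcon (-0.72, 1.51e-07). The authors' test called more genes than limma did here. It called 11 genes lower and 38 higher in Treg, and 102 lower and 215 higher in Tcon.

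The Art2b calls rest on few libraries. In Treg the call was lost without library 1 (adjusted p = 0.59), 2 (0.133), 3 (0.081) or 4 (0.147), and in a fit of all 12 libraries (0.106), with the log2 change between -0.44 and -0.37 and adjusted p between 8.12e-04 and 0.59 over the 6 libraries left out. In Tcon it was lost without library 1 (adjusted p = 0.0578), 3 (0.0658) or 4 (0.191), with the log2 change between -0.75 and -0.60.

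Art2b has a near copy, Art2a, next to it on chromosome 7 (101552453 to 101560865, listed as the polymorphic pseudogene Art2a-ps in the annotation of mm10). The Art2b and Art2a transcripts share 87.9% of 862 aligned bases, with a longest identical run of 125 bases, and 11.6% of the 50-base words of the Art2a transcript also occur in the longer Art2b transcript. How reads matching both genes were counted is not given in the sources used here, so the split between them is uncertain. The 60-base stretch in which the transcripts differ most, 21 positions written in capitals, shows where reads can tell the genes apart (5′ to 3′, GENCODE transcripts Art2b-201, bases 294 to 353, and Art2a-ps-201, bases 364 to 423).
Art2b: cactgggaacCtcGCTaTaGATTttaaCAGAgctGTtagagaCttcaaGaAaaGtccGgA
Art2a: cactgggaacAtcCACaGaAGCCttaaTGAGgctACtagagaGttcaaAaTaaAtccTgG

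Art2a was lower with SAH in every organ and cell type as well but was not called. In spleen Treg it was at 26.9 and 25.7 CPM with SAH, against 30.5 CPM with vehicle, and in lymph node Treg at 12.5 and 11.6 CPM with SAH, against 15.2 CPM with vehicle. In spleen Tcon it was at 6.69 and 5.83 CPM with SAH, against 8.67 CPM with vehicle, and in lymph node Tcon at 2.92 and 2.25 CPM with SAH, against 4.4 CPM with vehicle. Its log2 change was -0.26 in Treg (limma adjusted p = 0.398) and -0.51 in Tcon (0.0748). The Tcon change passed without library 2 (adjusted p = 0.0492) and in the fit of all 12 libraries (0.0132), and the authors' deposited table calls Art2a lower in Tcon (log2 fold change -0.60, false discovery rate 0.0102).

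Adk (chromosome 14, 21052574 to 21448569, plus strand) was at 42.1 and 36.6 CPM in spleen Tcon with SAH, against 59.0 CPM with vehicle. In lymph node Tcon it was at 33.7 and 33.0 CPM with SAH, against 40.5 CPM with vehicle. The SAH libraries did not overlap the vehicle library of their organ, and held 61.9% to 83.0% of its level. The log2 change in Tcon was -0.43 (95% interval -0.61 to -0.24, limma adjusted p = 0.0478). The call held in only 1 of the 6 fits that leave out a library: adjusted p was 0.0576 without library 1, 0.167 without 3, 0.423 without 4, 0.0678 without 5 and 0.0779 without 6. Without library 4, the spleen vehicle library, the log2 change was -0.27, and without library 1 it was -0.58. In Treg, Adk was at 49.1 and 42.4 CPM in spleen with SAH, against 46.0 CPM with vehicle, and at 40.4 and 38.8 CPM in lymph node with SAH, against 40.4 CPM with vehicle. In both organs of Treg the vehicle library lay between the SAH libraries, and the log2 change was -0.02 (95% interval -0.16 to 0.12, limma adjusted p = 0.987). The authors' deposited table calls Adk lower in Tcon (log2 fold change -0.44, false discovery rate 1.70e-04).

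P2rx7 (chromosome 5, 122643911 to 122691432, plus strand), the ATP-gated channel that Art2b modifies in mouse T cells, did not pass the test in either cell type. In the annotation, it is the only one of the 8 whose exons another gene overlaps, the miRNA gene Mir8115 over 119 bases. In spleen Tcon it was at 41.2 and 43.4 CPM with SAH, against 54.2 CPM with vehicle, and in lymph node Tcon at 19.2 and 15.1 CPM with SAH, against 23.8 CPM with vehicle. All 4 SAH libraries of Tcon were below the vehicle library of their organ, at 63.2% to 80.8% of it. The log2 change in Tcon was -0.41 (95% interval -0.61 to -0.21, limma adjusted p = 0.0666). It passed without library 2 (adjusted p = 0.0162, over a range of 0.0162 to 0.35 as each library was left out) and in the fit of all 12 libraries (0.0122). The authors' deposited table calls P2rx7 lower in Tcon (log2 fold change -0.41, false discovery rate 0.00187). In spleen Treg it was at 246 and 229 CPM with SAH, against 243 CPM with vehicle, and in lymph node Treg at 182 and 178 CPM with SAH, against 195 CPM with vehicle. The log2 change in Treg was -0.07 (95% interval -0.18 to 0.03, limma adjusted p = 0.878).

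Some marker levels of other cell types moved with treatment in spleen Tcon. The summed level of 7 listed genes of CD8 and NK cells, out of 10, was 86.4 and 87.8 CPM in spleen Tcon with SAH, against 114 CPM with vehicle. The summed level of 4 listed B cell genes, out of 13, was 28.2 and 38.3 CPM with SAH, against 49.9 CPM with vehicle, and that of 3 listed plasma cell genes, out of 9, was 159 and 155 CPM with SAH, against 231 CPM with vehicle. Within the plasma cell list, Prdm1 went the other way, at 12.7 and 12.0 CPM with SAH, against 10.8 CPM with vehicle. Within the CD8 and NK list, Prf1 did so, at 12.9 and 12.9 CPM with SAH, against 12.2 CPM with vehicle. Eomes and Cd8b1 of that list lay on both sides of vehicle. The sum of 4 listed myeloid and dendritic genes, out of 13, lay on both sides of vehicle, at 202 and 180 CPM with SAH against 196 CPM, and the 1 listed red cell gene, out of 8, was at 3.38 and 50 CPM with SAH against 4.21 CPM. In lymph node Tcon the first 3 sums were 46.7 and 41.2 CPM with SAH, against 46.0 CPM with vehicle, for CD8 and NK cells, 9.11 and 8.78 CPM with SAH, against 5.97 CPM with vehicle, for B cells, and 119 and 136 CPM with SAH, against 106 CPM with vehicle, for plasma cells. Their part in the Tcon results was not tested. Without library 4, which leaves the lymph node libraries as the source of the SAH effect, Art2b changed by -0.60 and Adk by -0.27 on the log2 scale, and neither was called.

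The enzymes that make adenosine did not pass the test with SAH in either cell type. Entpd1 (chromosome 19, 40612366 to 40741602, plus strand) was at 37.4 and 37.3 CPM in spleen Treg with SAH, against 36.9 CPM with vehicle, and at 39.4 and 44.1 CPM in lymph node Treg with SAH, against 40.1 CPM with vehicle. Nt5e (chromosome 9, 88327197 to 88372092, plus strand) was at 365 and 302 CPM in spleen Treg with SAH, against 313 CPM with vehicle, and at 370 and 365 CPM in lymph node Treg with SAH, against 356 CPM with vehicle. The vehicle library lay between the SAH libraries for Nt5e in spleen and for Entpd1 in lymph node. In Treg the log2 change was 0.04 for Entpd1 (95% interval -0.10 to 0.17) and 0.07 for Nt5e (-0.07 to 0.21). In Tcon it was -0.05 for Entpd1 (-0.39 to 0.28) and 0.09 for Nt5e (-0.15 to 0.32).

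Cd38 (chromosome 5, 43868553 to 43912375, plus strand), which consumes NAD, was at 24.6 and 18.6 CPM in spleen Treg with SAH, against 22.3 CPM with vehicle, and at 19.7 and 20.1 CPM in lymph node Treg with SAH, against 21.3 CPM with vehicle. Its log2 change was -0.08 in Treg (95% interval -0.28 to 0.13) and 0.06 in Tcon (-0.29 to 0.41). The width of the Tcon interval goes with low levels: Cd38 rested on 25 to 180 reads per Tcon library and Entpd1 on 16 to 154. Adora2a (chromosome 10, 75316877 to 75334784, plus strand), the adenosine receptor, was at 73.7 and 76.1 CPM in spleen Treg with SAH, against 73.0 CPM with vehicle, and at 54.7 and 53.4 CPM in lymph node Treg with SAH, against 46.6 CPM with vehicle. All 4 SAH libraries of Treg were above their vehicle library, at 101% to 117% of it, and the log2 change of 0.12 (95% interval -0.0014 to 0.25, limma adjusted p = 0.71) did not pass. Adora2a in Tcon changed by -0.02 (-0.20 to 0.16). Ada (chromosome 2, 163726584 to 163750239, minus strand) changed by 0.03 in Treg (-0.20 to 0.26) and by -0.02 in Tcon (-0.21 to 0.18). It was at 7.34 and 6.28 CPM in spleen Treg with SAH, against 7.24 CPM with vehicle, and at 7.86 and 7.91 CPM in lymph node Treg with SAH, against 7.06 CPM with vehicle.

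The SAH effect was then compared between the cell types and between the organs. The main fit between cell types held no term for the shared library number. In it, no gene of 9784 measured in both tables was called for a different SAH effect in Treg and Tcon (0%). Limma gave 453 genes an unadjusted p below 0.05 there, 3 of the 8 genes among them. The effect on Adk was 0.41 higher in Treg (95% interval 0.16 to 0.65, limma adjusted p = 0.658). That on P2rx7 was 0.33 higher in Treg (0.10 to 0.56, limma adjusted p = 0.826), and that on Art2b 0.27 higher (0.03 to 0.51). With the shared library number as a block, the Adk difference passed at an adjusted p of 0.0153, against 0.658 without it, and P2rx7 did not pass at 0.0562. The block called 76 genes in all. Between organs, none of the 8 genes was called in Treg, where 0.00961% of genes were, or in Tcon, where 0% were. Limma gave none of them an unadjusted p below 0.05 in either cell type, against 251 of all genes in Treg and 504 in Tcon. Adk in Tcon was nearest, with an effect 0.30 lower in spleen than in lymph node (95% interval -0.62 to 0.02, limma adjusted p = 0.913).

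Promoter sequence is given for the genes that fell or that lay below the vehicle library in all 4 Tcon libraries. RefSeq windows of 250 bases before the transcription start (GRCm38.p6) matched all of the 8 genes but Adora2a, in 10 windows, and 5 motifs were searched on both strands: TGTTTAC for forkhead factors, TGTGGT for RUNX factors, GAANNTTC for heat shock factors, TGACGTCA for the cAMP response and GGGCGG for the GC box. No match overlaps another in the windows printed. The Art2b window (chr7:101581162-101581411, minus strand) is 43.2% GC and holds 1 RUNX match. It precedes a RefSeq start but lies inside the GENCODE span of Art2b given above, whose 5′ end is at 101585600. Bases before that GENCODE end were not searched for Art2b. The P2rx7 (chr5:122643677-122643926, plus strand) and Adk (chr14:21052324-21052573, plus strand) windows hold 2 GC boxes each. P2rx7 and Adk each have a second window, which is not printed and holds no match for P2rx7 and 3 GC boxes for Adk. In the lines below, each 5′ to 3′ on the strand of its gene, capitals mark those matches.
Art2b promoter: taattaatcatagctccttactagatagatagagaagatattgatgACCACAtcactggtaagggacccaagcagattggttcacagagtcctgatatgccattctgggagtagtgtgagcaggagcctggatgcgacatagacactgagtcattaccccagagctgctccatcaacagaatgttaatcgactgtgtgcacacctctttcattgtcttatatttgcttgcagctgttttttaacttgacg
P2rx7 promoter: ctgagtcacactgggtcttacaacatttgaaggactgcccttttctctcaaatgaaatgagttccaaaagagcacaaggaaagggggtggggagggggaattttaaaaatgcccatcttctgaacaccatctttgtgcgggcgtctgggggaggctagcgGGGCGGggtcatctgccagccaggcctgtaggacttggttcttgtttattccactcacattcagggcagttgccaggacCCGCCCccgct
Adk promoter: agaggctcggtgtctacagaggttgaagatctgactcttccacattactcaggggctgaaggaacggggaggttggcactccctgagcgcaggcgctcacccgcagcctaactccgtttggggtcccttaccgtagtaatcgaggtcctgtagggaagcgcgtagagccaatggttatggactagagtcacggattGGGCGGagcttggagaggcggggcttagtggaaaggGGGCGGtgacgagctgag

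Across 32851 mouse promoter windows of that length, 14% held the RUNX letters, 32.7% the GC box, 6.69% the heat shock letters, 3.17% the forkhead letters and 1.55% the cAMP response letters. The forkhead letters were in none of the 10 windows. A match is a description of the letters in this window, not a site in use.

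More of these genes differed between organs than with SAH. In Treg, Art2b, Adora2a and P2rx7 were higher in spleen than in lymph node, 3 of 8, where 14.7% of all genes were called, 8.71% higher and 6.01% lower (906 and 625 genes, or 718 and 834 after rescaling the columns). In Tcon, Entpd1 and Cd38 reached the listing level of 1 CPM in at least 3 libraries through their spleen libraries alone, so their organ difference there is described and no call is read from it. Of the other 6 genes, 5 were higher in spleen in Tcon, where 4.73% of all genes were called, 3.28% higher and 1.46% lower. Ada was called in neither cell type by limma. The median log2 difference was 0.14 over the 8 genes in Treg and 0.40 over those 6 in Tcon, against -0.0028 in Treg and -0.0019 in Tcon over all genes.

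**Figure D3:**
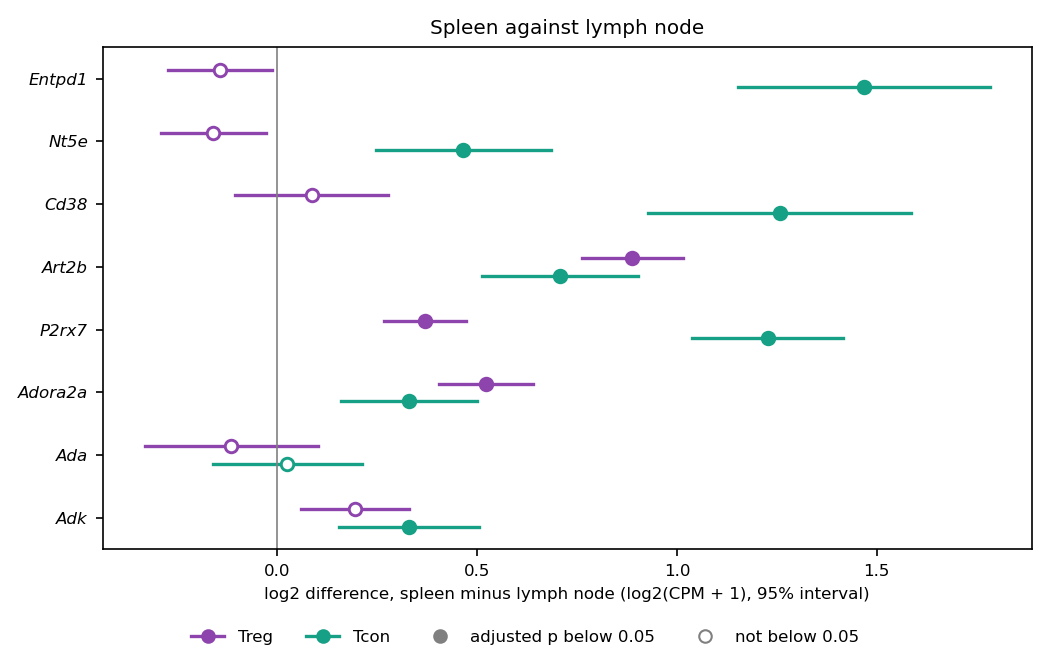
Difference between organs for each gene in Treg and Tcon, as log2(CPM + 1) of spleen minus lymph node with its 95% interval from limma (filled points, adjusted p below 0.05). Entpd1, Cd38, P2rx7 and Nt5e lie further right in Tcon than in Treg, and Art2b, Adora2a and P2rx7 are filled in both. Entpd1 and Cd38 are listed in Tcon through spleen libraries alone.

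Of the ectonucleotidases, Nt5e was higher in spleen in Tcon, and Entpd1 is described by its values there. Entpd1 was at 2.97, 2.95 and 3.64 CPM in the 3 spleen libraries of Tcon, against 0.712, 0.408 and 0.427 CPM in the 3 lymph node libraries. Its mean in spleen was 6.18 times that in lymph node, with no overlap, and no lymph node library reached 1 CPM. Nt5e was at 52.6, 41.6 and 45.1 CPM in spleen Tcon, against 38.1, 30.6 and 31.3 CPM in lymph node Tcon, a log2 difference of 0.47 (0.25 to 0.69, limma adjusted p = 0.0261). In Treg the sign was the other way and neither passed: Entpd1 differed by -0.14 (95% interval -0.27 to -0.01, limma adjusted p = 0.137) and Nt5e by -0.16 (-0.29 to -0.03, limma adjusted p = 0.0999). Nt5e passed in Treg without library 5 (-0.24, limma adjusted p = 0.00277).

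Among the NAD-using ectoenzymes, Cd38 was at 3.0, 3.76 and 3.80 CPM in spleen Tcon, against 0.806, 1.23 and 0.667 CPM in lymph node Tcon. The mean in spleen was 3.91 times that in lymph node, with no overlap, and 1 of 3 lymph node libraries reached 1 CPM. Cd38 in Treg differed by 0.09 (-0.10 to 0.28) and was not called. Art2b was higher in spleen in both cell types, with a log2 difference of 0.89 in Treg (0.76 to 1.02, limma adjusted p = 1.97e-07) and 0.71 in Tcon (0.51 to 0.90, limma adjusted p = 0.00103). Its spleen and lymph node libraries did not overlap in either cell type. The near copy Art2a was also higher in spleen, 2.04-fold in Treg (limma adjusted p = 3.04e-07) and 1.95-fold in Tcon (limma adjusted p = 5.80e-04) on the log2(CPM + 1) scale.

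Of the receptors, P2rx7 was higher in spleen in both cell types. In Treg the log2 difference was 0.37 (95% interval 0.27 to 0.47, limma adjusted p = 1.05e-04), and in Tcon it was 1.23 (1.04 to 1.42, limma adjusted p = 1.62e-05), with means 2.39-fold apart. Adora2a was at 73.7, 76.1 and 73.0 CPM in spleen Treg, against 54.7, 53.4 and 46.6 CPM in lymph node Treg. In Tcon it was at 27.6, 24.2 and 26.5 CPM in spleen, against 22.0, 19.1 and 20.6 CPM in lymph node, with no overlap in either cell type. It differed by 0.52 in Treg (0.40 to 0.64, limma adjusted p = 1.54e-05) and 0.33 in Tcon (0.16 to 0.50, limma adjusted p = 0.0381). P2rx4, the neighbour of P2rx7 and another ATP-gated channel, was called in none of these comparisons. Of the adenosine-removing enzymes, Adk differed in Treg by 0.19, which did not pass (limma adjusted p = 0.0551) except without library 6 (0.25, 0.0058). In Tcon, Adk was higher in spleen by 0.33 (0.16 to 0.50, limma adjusted p = 0.0429). Its Tcon libraries overlapped between organs, at 36.6 to 59.0 CPM in spleen and 33.0 to 40.5 CPM in lymph node. Ada differed by -0.12 in Treg and 0.02 in Tcon, where it was at 8.33, 9.07 and 8.15 CPM in spleen against 8.06, 8.14 and 8.85 CPM in lymph node.

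The Tcon calls for Nt5e, Adora2a and Adk were lost without any of libraries 1, 3, 4 and 5, with limma adjusted p of 0.0814 to 0.152 for Nt5e, 0.151 to 0.173 for Adora2a and 0.142 to 0.237 for Adk. Adora2a and Adk also did not pass once the columns were rescaled to equal totals (0.0515 and 0.0525). The calls for Art2b and P2rx7 in Tcon held as each library was left out. Some marker genes of other cells moved with organ in Tcon. Besides Jchain, the NK gene Klrb1c was at 10.9, 13.4 and 23.6 CPM in spleen Tcon against 0.332 to 0.664 CPM in lymph node Tcon, and the myeloid gene Lyz2 was at 18.1 to 22.7 CPM in spleen Tcon against 0.080 to 0.664 CPM in lymph node Tcon. Ctss of the same myeloid list was lower in spleen Tcon, at 147 to 166 CPM against 179 to 213 CPM in lymph node Tcon, and the sum of that list overlapped, at 180 to 202 CPM in spleen Tcon and 190 to 225 CPM in lymph node Tcon. Xbp1 of the plasma cell list overlapped as well, at 104 to 118 CPM in spleen Tcon and 97.8 to 126 CPM in lymph node Tcon. Summed over the listed genes of CD8 and NK cells, spleen Tcon libraries held 86.4 to 114 CPM and lymph node Tcon libraries 41.2 to 46.7 CPM. In Treg the sum of 5 such genes was lower in spleen, at 33.5 to 34.8 CPM against 40.6 to 41.1 CPM in lymph node. Single genes of that Treg sum differed in direction. Nkg7 was lower in spleen Treg, at 9.62 to 12.0 CPM against 18.3 to 22.4 CPM. Klrb1c was higher, at 3.38 to 3.91 CPM against 1.08 to 1.44 CPM. Eomes was higher as well, at 4.73 to 5.40 CPM against 2.05 to 3.59 CPM, and Cd8b1 and Prf1 overlapped. Lyz2 was also higher in spleen Treg, at 21.6 to 52.2 CPM against 0.901 to 1.33 CPM. The part of these cells in the Tcon organ differences was not tested.

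The organ difference itself differed between the cell types for P2rx7 and Nt5e, 2 of the 6 genes listed in Tcon through both organs, where 1.46% of genes in both tables were called, 0.368% higher and 1.09% lower. The log2 difference in Treg minus that in Tcon was -0.86 for P2rx7 (95% interval -1.07 to -0.64, limma adjusted p = 2.51e-04) and -0.63 for Nt5e (-0.90 to -0.35, 0.0249). For Entpd1 it was -1.61 and for Cd38 -1.17, values that rest on Tcon levels admitted through spleen alone. A filter of at least 5 CPM in at least 2 libraries removed both from Tcon. For Art2b (0.18, -0.05 to 0.41), Adora2a (0.19, -0.01 to 0.40), Ada (-0.14, -0.41 to 0.13) and Adk (-0.14, -0.36 to 0.09) it was not called. The Nt5e call was lost without library 1 (adjusted p = 0.248), 3 (0.181) or 4 (0.249).

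**Figure D4:**
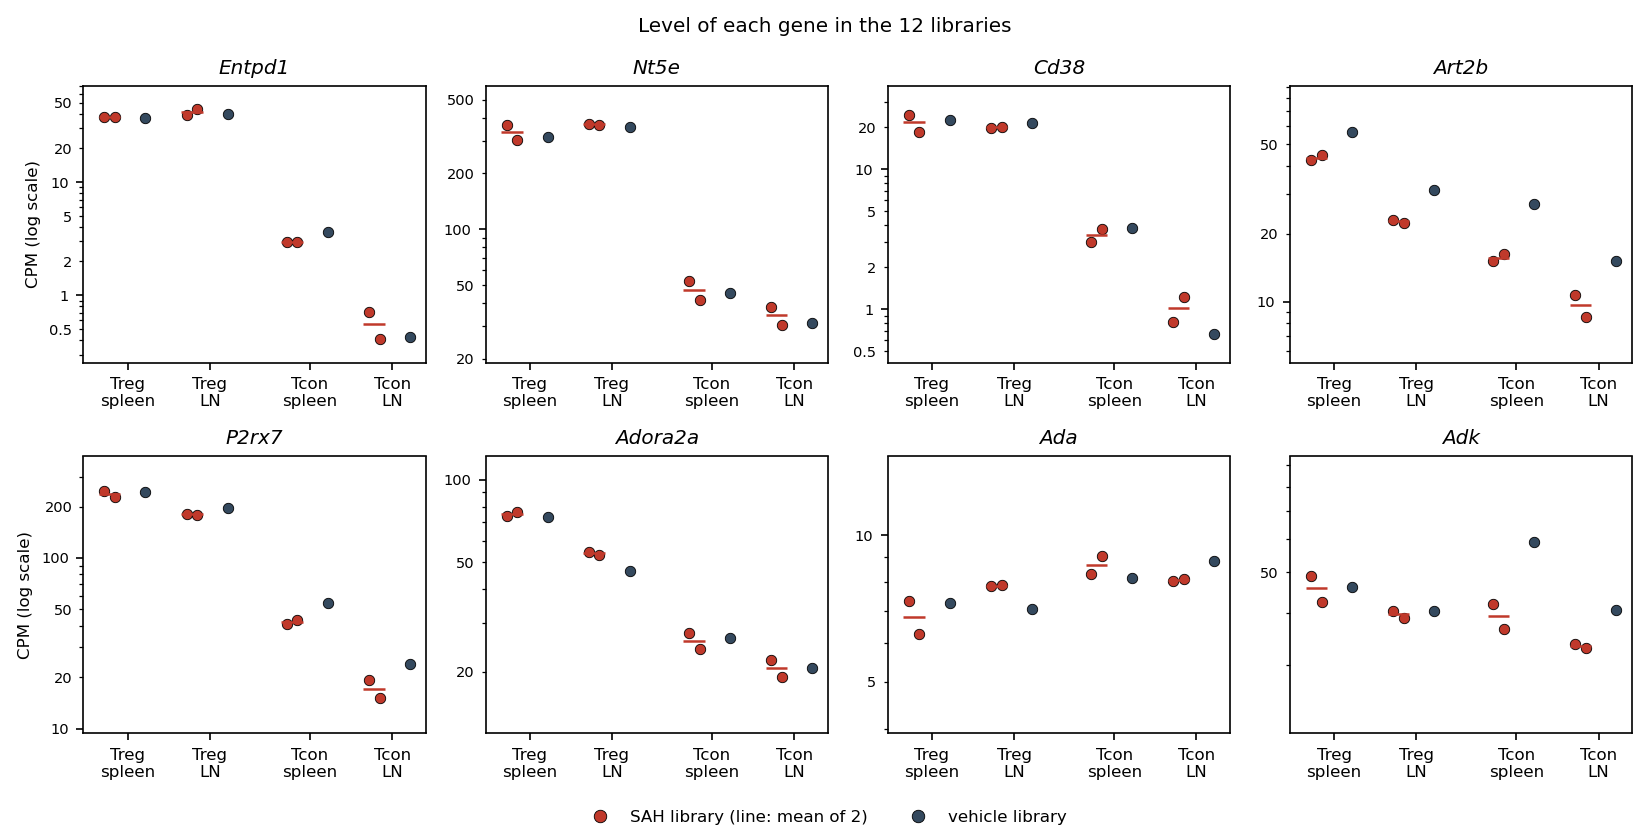
Level of each gene in the 12 libraries (CPM, log axis), with SAH libraries left of the vehicle library in each organ and cell type and a line at the mean of 2 SAH libraries. Entpd1, Cd38, Nt5e, P2rx7 and Adora2a sit higher in all 6 Treg libraries than in any Tcon library, whereas Art2b and Adk overlap between the cell types and Ada sits slightly lower in Treg.

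Every Treg library lay above every Tcon library for Entpd1, Cd38, Nt5e, P2rx7 and Adora2a. How many of all genes do so was not counted, so this is no trait of the group. Cd3e and P2rx4, outside the 8, did so as well. The tables were normalized separately, so levels were not tested between them. Entpd1 averaged 39.2 ± 2.73 CPM in Treg against 1.85 ± 1.49 CPM in Tcon (SD, n = 6 each), 21.2 times as much. For Cd38 the means were 21.1 ± 2.13 CPM in Treg against 2.21 ± 1.48 CPM in Tcon (SD, n = 6 each), 9.55 times as much. For Nt5e they were 345 ± 29.8 CPM in Treg against 39.9 ± 8.41 CPM in Tcon (SD, n = 6 each), 8.66 times as much. The receptors followed, with ratios of 6.47 for P2rx7 and 2.70 for Adora2a. Art2b averaged 2.38 times its Tcon level in Treg, with overlapping ranges, Adk 1.05 times with overlapping ranges, and Ada 0.863 times, at 6.28 to 7.91 CPM in Treg against 8.06 to 9.07 CPM in Tcon.

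Levels were also divided by the kilobases of annotated exon, joined over all transcripts of a gene. This is a rough scale between genes, since the transcripts in use were not measured. On it, Nt5e led in Treg at 40.1 ± 3.47 CPM per kb, followed by P2rx7 at 35.5 ± 5.15, Adora2a at 20.6 ± 4.18 and Art2b at 13 ± 4.80 (SD, n = 6 each). Entpd1 (7.02), Cd38 (5.43), Adk (5.03) and Ada (3.64) were lower. Of neighbours in that order, P2rx7 lay above Adora2a, Entpd1 above Cd38 and Adk above Ada in all libraries, and the other neighbours overlapped. In Tcon, Adora2a was at 7.62 ± 1.09 CPM per kb, P2rx7 at 5.50 ± 2.62, Art2b at 5.47 ± 2.28, Adk at 4.79, Nt5e at 4.64 and Ada at 4.21 (SD, n = 6 each). Each of these overlapped with the next, whereas Cd38 (0.568) and Entpd1 (0.332) lay below Ada in all libraries and overlapped with each other.

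Genes of the wider pathways were counted in 7 lists. The lists cover ectoenzymes and carriers, purine receptors and related receptors, NAD enzymes, ADP-ribosylation, purine synthesis and salvage, cAMP signalling, and P2X7-linked shedding. In Treg, Art2b was the single gene called with SAH in these lists, of which 6 to 30 genes each were measured. In Tcon, where 0.88% of all genes were called higher, and 48 in place of 87 genes once the columns were rescaled, 5 further genes in these lists were higher with SAH: Pnp, which splits purine nucleosides, by 0.37 on the log2 scale (limma adjusted p = 0.0191), Crem, a transcription factor of the cAMP pathway, by 0.62 (0.0166), Tiparp, an ADP-ribosyltransferase of the cell interior, by 0.28 (0.0307), Impdh2, an enzyme of guanine nucleotide synthesis, by 0.27 (0.0478), and Sirt1, a deacetylase that uses NAD, by 0.28 (0.0485). These 5 calls were not followed through the other settings or as libraries were left out. Those of Impdh2 and Sirt1 lie close to the threshold. The lists held 16 to 29 measured genes in Tcon, apart from the receptor list with 7 and P2X7-linked genes with 11.

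Between organs in Treg, 4 of 25 measured ADP-ribosylation genes were higher in spleen and 3 were lower, where 8.71% of all genes were higher and 6.01% lower. The higher ones included Art2a, Tiparp (0.49, limma adjusted p = 7.96e-04) and Zc3hav1 (0.31, 0.00123), and the lower ones Parp3 (-0.24, 0.00524), Parp1 (-0.18, 0.0143) and Art4 (-0.46, 0.0472). Of the cAMP list, 6 of 25 were higher and 2 lower, with Pde4b (0.24, 0.00298) higher and Pde4a (-0.46, 0.0212) lower, both enzymes that break down cAMP. Of the list of purine receptors and related receptors, 3 of 6 were higher, namely P2rx7, Adora2a and P2ry10 (0.31, 0.0342). A place in this list does not show that a receptor binds purines. Of purine synthesis and salvage genes, 3 of 30 were higher and 3 lower, with Xdh, which makes uric acid, higher (0.40, 3.76e-04) and Pfas, a step of purine synthesis, lower (-0.27, 0.00426), shares near those of all genes. Enpp1 and Enpp5, ectoenzymes of the nucleotide pyrophosphatase family, were higher (0.43, 0.00342, and 0.50, 0.00523), and the adenosine carrier Slc29a1 was lower (-0.25, 0.00704). In Tcon, where 3.28% of all genes were higher in spleen and 1.46% lower, 3 of 7 in that receptor list were higher (P2rx7, Adora2a and Gpr34). Of 25 ADP-ribosylation genes, Art2b and Art2a were higher and Parp11 was lower (-0.27, limma adjusted p = 0.0295), and none of the cAMP list was called.

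By root mean square difference of log2(CPM + 1) centred within each cell type over the 12 libraries, the genes with a pattern most like Art2b were Gimap7 (0.121) and Pde2a (0.156), of 7823 compared, where the median gene stood at 0.492. For Adk they were Atf6 (0.0952) and H1f0 (0.0975), for P2rx7 Chsy1 (0.187) and Fam129a (0.218), and for Adora2a Rnf43 (0.0723) and Trib1 (0.0738). The median gene stood at 0.226 from Adk, 0.487 from P2rx7 and 0.242 from Adora2a. Entpd1 was most like Il2rb (0.0603), Nt5e most like Map3k8 (0.107) and Cd38 most like Chsy1 (0.133). The median gene stood at 0.536 from Entpd1, 0.225 from Nt5e and 0.473 from Cd38. Entpd1 and Cd38 are included only through their organ call in Tcon, which is not read above. Their Tcon levels were at most 3.64 and 3.80 CPM, so these 2 likenesses rest partly on low values. These are descriptions over libraries that also share organ and treatment.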

How the data were processed

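Per the labels' protocols, libraries were made from Trizol-extracted, column-cleaned RNA with a stranded Illumina mRNA kit. The submitters' processing notes name TopHat, Bowtie, edgeR and the build mm10. How genes were counted, with or without strand, and against which annotation is not stated in the labels. The authors deposited a table per cell type with a normalized signal that the file headers call CPM, scaled further by library (column totals 971928 to 1.02143e+06). The deposited log2 values are fold changes with SAH and mean CPM, and the deposited scores are a likelihood ratio and a call, per the file headers. Per the file headers, p-values and false discovery rates are also deposited. Every listed gene reached 1 CPM in at least 3 libraries. All low values lay within 0.1 of a whole read of their library, so depth could be rebuilt, but the values were tested as CPM and not as counts.

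Values were analysed as log2(CPM + 1), for genes with at least 1 CPM in at least 2 libraries, with R 4.3.3 and limma 3.58.1 (intensity trend, two-sided, Benjamini-Hochberg adjusted across each comparison's genes, threshold 0.05). The model of a cell type held organ and treatment and left 3 residual degrees of freedom. Differences of effects between cell types were tested on 9784 genes in a model of all 12 libraries, which left 6. Adding the organ by treatment interaction to the model of a cell type left 2. The fit was tested on simulated data. The genes and lists were chosen with earlier results of these data known. The text names all 8 genes, the called genes of the lists (up to 6 per list and comparison by smallest p, of which the text gives examples), the neighbours and near copies Art2a and P2rx4, defining markers, and the genes nearest in pattern among those with at least 10 CPM on average in both tables. Klrb1c, Nkg7, Eomes, Cd8b1, Prf1, Lyz2, Ctss, Xbp1, Prdm1, Jchain and Slc4a1 were picked from the marker lists after their values were seen. Coordinates are from the GENCODE annotation of mm10. Alternatives were other pseudocounts, filters and scalings, merging symbols with identical values, a fit of all 12 libraries, the shared library number as a block, and leaving out each library number.

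Same-numbered Treg and Tcon libraries deviated together, with correlations of residuals across genes of 0.286 to 0.537, over 5 distinct values, since libraries 1 and 4 have the same residual with opposite sign. All exceeded 0.1, so the numbers were taken to pair the samples in the block alternative. The main tests between cell types did not use this pairing. With the block, 76 genes were called for the SAH effect and 703 for the organ difference. Without it, 0 and 143 were called. The pairing comes from the library numbers in the titles and from this check. The residual model has no organ by treatment term, so such an interaction common to both cell types would also raise these correlations. The check therefore cannot show that same-numbered libraries share a mouse.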

Additional observations from a re-analysis of the deposited data

Results flagged for a closer look

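The difference between spleen and lymph node was itself different in Treg and Tcon by limma's test of the difference, with adjustment over 9784 genes. The log2 difference in Treg minus that in Tcon was -0.86 for P2rx7 (adjusted p = 2.51e-04) and -0.63 for Nt5e (adjusted p = 0.0249). For Entpd1 it was -1.61 and for Cd38 -1.17, but both were under 4 CPM in every Tcon library and reached the listing level of the Tcon table through spleen libraries alone, so these 2 values are a description. Jchain, Klrb1c and Lyz2, single markers of other cells picked after their values were seen, were higher in spleen in both Tcon and Treg. In Treg, Lyz2 was at 21.6 to 52.2 CPM in spleen against 0.901 to 1.33 CPM in lymph node. Klrb1c was at 3.38 to 3.91 CPM in spleen Treg against 1.08 to 1.44 CPM in lymph node Treg. Ctss was lower in spleen in both cell types, and in Tcon the myeloid sum overlapped between organs. Their part in these differences was not tested.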

How the results depend on the processing

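The tests were repeated with pseudocounts of 0.25 and 2, other filters, 2 other scalings, merged symbols, a fit of all 12 libraries, the replicate block and each library number left out. The planned edgeR and DESeq2 tests on rebuilt reads were not run. No call among the 8 genes changed sign. With each library left out, the number called with SAH ranged from 7 to 95 genes and from 0 to 1 of the 8 in Treg, against 21 and 1 with all libraries, and from 11 to 226 genes and 0 to 3 of the 8 in Tcon, against 103 and 2. In the fit of all 12 libraries 7 genes and 0 of the 8 were called in Treg, and 243 genes in Tcon. Between organs, 768 to 1830 genes were called in Treg, and 215 to 628 genes and 4 to 7 of the 8 in Tcon. For the difference of the SAH effect between cell types, a pseudocount of 2 called 3 genes, and the replicate block called 76 genes, of which 1 is Adk. For the organ difference between cell types, 62 to 133 genes and 2 to 4 of the 8 were called as libraries were left out, the replicate block called 703 genes, and a filter of at least 5 CPM in at least 2 libraries left 2 of the 8 called, since it removed Entpd1 and Cd38 from Tcon. The counts out of 8 between organs include these 2, which are listed in Tcon through spleen alone. The block changed no other call among the 8 genes. For the interaction of organ and treatment, 0 to 94 genes were called in Treg and 0 to 15 in Tcon as libraries were left out, and 2 in Treg with a pseudocount of 0.25, the 5 CPM filter, median ratio scaling or merged symbols. Rescaling the columns to equal totals changed the split of calls with SAH in Tcon to 48 higher and 28 lower, against 87 and 16, and between organs in Treg to 718 higher and 834 lower, against 906 and 625. The cause of these changes was not tested. Each organ has 1 vehicle library, and reads per Tcon library limit Entpd1 (16 at the lowest) and Cd38 (25 at the lowest).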
